A study of Mus musculus with 3 samples.

Results

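Alveolar macrophages that carried no UMI (unique molecular identifier, 1 counted RNA molecule) of the neutrophil-attracting chemokine Cxcl3 a day after LPS are described here. They were picked cell by cell. A barcode needed 3000 or more UMIs, 500 or more genes, no more than 15% of UMIs from mitochondrial genes, and a UMI for at least 4 of 9 alveolar macrophage genes (Atp6v0d2, Car4, Cidec, Krt79, Lpl, Marco, Mrc1, Plet1 and Slc39a2). It could hold at most 1 summed UMI of Fstl1, Inhba, Palld and Creb3l1, fewer than 5 of Tnf, Cxcl1 and Egr2, and 0 of Cxcl3. This left 345 of 10213 barcodes after LPS with Reg3g and 361 of 15015 after LPS alone, 706 of the 33703 barcodes of the series. The question was how far these cells keep the state of PBS lung, as read from Fabp1, Siglecf, Krt19 and Ear1.

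The groups were C57BL/6 wild type mice given LPS (bacterial lipopolysaccharide, 4 mg/kg) with the secreted lectin Reg3g (6 µg), the same LPS dose alone, or PBS, each in 50 µL into the trachea, 24 h before the lungs were taken. Digested lung was sorted for live CD45+, Ly6G-, F4/80+ cells with CD11b or CD11c and profiled by droplet sequencing of 3′ ends. Each group is 1 library from the pooled cells of 3 mice, and age and sex are not given in the sources used here. There is therefore no replicate and no test between groups, and 95% intervals cover counting error only, not mice, preparations or the spread between cells. The libraries held 60942042 UMIs (LPS with Reg3g), 70474636 (LPS) and 52354207 (PBS), and 32, 37 and 28 barcodes were shared by 2 libraries, none of them between the sets without Cxcl3.

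Alveolar macrophages live in the air spaces, where they clear surfactant lipids and inhaled particles. GM-CSF and TGF-beta drive their identity through the nuclear receptor PPAR-gamma. After LPS, Toll-like receptor 4 signals through NF-kB and interferon regulatory factors, resident cells make chemokines that call in neutrophils and monocytes, and many genes of the resting state are turned down. Cxcl3 is one of these chemokines, a ligand of Cxcr2 on neutrophils.

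The 4 genes of the PBS state and the gene that separates the cells lie on different chromosomes. In GENCODE M21 (GRCm38) Fabp1 spans chr6:71199827-71205023 (+), Siglecf chr7:43351341-43359531 (+), Krt19 chr11:100140810-100148665 (-), Ear1 chr14:43818765-43875517 (-) and Cxcl3 chr5:90786103-90789600 (+), all protein-coding. The stretches from 250 bases before to 50 after the start of Fabp1, Siglecf, Ear1 and Cxcl3 are shown because the first 3 genes were low in LPS cells and least so in cells with no UMI of the fourth (RefSeq, GRCm38.p6, 5′ to 3′ on the gene's strand). The 2 annotations disagree on the start of Fabp1 and Ear1, and by a few bases on that of Cxcl3. For Fabp1 the GENCODE start lies inside the window, upstream of the RefSeq start. For Ear1 the RefSeq start lies inside the GENCODE span, near its 3′ end, so that window is the RefSeq start only. Capitals mark AGGTCA (a nuclear receptor half-site), GAGGAA (the core bound by PU.1) and the NF-kB consensus, searched on both strands, with no overlap among the matches.
Fabp1, chr6:71199629-71199928 (+): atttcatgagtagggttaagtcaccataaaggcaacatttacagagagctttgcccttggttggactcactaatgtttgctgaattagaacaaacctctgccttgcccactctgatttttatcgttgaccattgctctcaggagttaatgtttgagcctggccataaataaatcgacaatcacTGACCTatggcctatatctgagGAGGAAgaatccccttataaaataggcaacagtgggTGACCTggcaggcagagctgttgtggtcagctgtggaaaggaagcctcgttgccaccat
Siglecf, chr7:43351091-43351390 (+): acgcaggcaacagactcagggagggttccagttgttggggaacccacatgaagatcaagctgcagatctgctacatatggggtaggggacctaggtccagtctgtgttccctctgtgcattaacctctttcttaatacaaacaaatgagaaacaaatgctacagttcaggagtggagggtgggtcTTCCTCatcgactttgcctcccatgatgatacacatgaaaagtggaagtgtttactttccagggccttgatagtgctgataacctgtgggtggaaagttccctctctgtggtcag
Ear1, chr14:43819590-43819889 (-): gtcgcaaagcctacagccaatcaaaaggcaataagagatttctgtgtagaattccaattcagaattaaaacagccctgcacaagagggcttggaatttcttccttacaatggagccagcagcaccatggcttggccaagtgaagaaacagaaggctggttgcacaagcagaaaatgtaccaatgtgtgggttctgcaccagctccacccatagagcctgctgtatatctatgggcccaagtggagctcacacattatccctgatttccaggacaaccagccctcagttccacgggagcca
Cxcl3, chr5:90785851-90786150 (+): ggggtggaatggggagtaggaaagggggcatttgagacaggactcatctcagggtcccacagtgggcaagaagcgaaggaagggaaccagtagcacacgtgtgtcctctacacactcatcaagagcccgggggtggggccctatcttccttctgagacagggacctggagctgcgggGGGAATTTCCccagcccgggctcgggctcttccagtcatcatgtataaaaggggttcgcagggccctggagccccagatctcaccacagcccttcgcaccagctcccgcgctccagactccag
Distances are counted from the RefSeq start. The Fabp1 window held 2 half-sites on the reverse strand, 67 and 9 bases before the start, and a PU.1 core 45 bases before it. By the GENCODE start the half-site at 9 bases and the PU.1 core lie inside the gene. The Siglecf window held a PU.1 core on the reverse strand 65 bases before the start, and the Cxcl3 window an NF-kB match 73 bases before it. The Ear1 window held none of the 3. Of 32851 windows of this length, 16.3% held the half-site, 28.3% the PU.1 core and 1.63% this form of the NF-kB site. A match is a run of letters, not a bound site.

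The cells carried the alveolar macrophage genes that chose them, with a median of 7 of the 9 in both sets, but cells with just 4 were more frequent among them. They were 8.12% of the cells without Cxcl3 after LPS with Reg3g and 14.1% after LPS alone, against 2.95% and 1.81% of the cells that met every other criterion and held Cxcl3 (1119 and 1602 cells) and 0.995% of PBS cells. Throughout, PBS cells are the 3217 cells of the PBS library under the same whole rule. UMIs of other cell types' marker lists were common. Monocyte markers, some of which macrophages also express, had a UMI in 100% of cells of both sets, as in PBS cells, and interstitial macrophage markers in 55.9% and 65.9%, against 61.8% of PBS cells. Neutrophil markers had a UMI in 85.8% and 88.9% of cells, against 52.8% of PBS cells, and summed to 1379 and 1824 CPM (UMIs of a gene per 1000000 UMIs of the set), against 2731 and 2748 CPM with Cxcl3 and 149 CPM in PBS cells. Of 5 neutrophil markers measured against PBS cells, S100a9, Wfdc17 and S100a8 stood 2-fold or more above in both libraries and Mmp8 below (medians 2.72 and 3.45). For comparison, 3.37% and 4.63% of all genes from 10 CPM stood above and 3.41% and 5.07% below. Ly6g was at 0 after LPS with Reg3g, as in PBS cells, and Ngp was at 0 after LPS alone. The part of these markers in the results was tested no further than by the limits that follow. Limits on summed UMIs of marker genes of 7 other cell types (chosen after seeing the data) were passed by 298 of 345 cells after LPS with Reg3g and 274 of 361 after LPS alone, by 89.4% and 83.3% of cells with Cxcl3, and by 92.5% of PBS cells. Among cells without Cxcl3, monocyte genes exceeded the limit in 9.57% (LPS with Reg3g) and 14.1% (LPS), complement C1q genes of interstitial macrophages in 6.09% and 10.8%, and dendritic cell genes in 1.45% and 4.99%. T and NK cell markers summed to 21.9 and 32.0 CPM. Most of the cells were thus within limits set after seeing the data. Some results that move with the others are given with and without them, and the rest over all cells only. Of genes picked for naming and 2-fold apart from PBS cells, 102 of 118 and 110 of 124 stayed so within the limits. Against cells with Cxcl3 72 of 88 and 64 of 87 stayed so, and between the libraries 19 of 36. In the same order 1, 1, 6, 2 and 4 changed direction.

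The share of alveolar macrophages without Cxcl3 depended on how deeply a cell was sequenced. It was 23.6% (21.4 to 25.8) of the 1464 cells meeting every other criterion after LPS with Reg3g, 18.4% (16.7 to 20.2) of 1963 after LPS alone and 98.3% (97.8 to 98.7) of 3273 with PBS. Among cells of 3000 to under 5000 UMIs it was 35.5% after LPS with Reg3g, 27.0% after LPS alone and 98.7% with PBS. Among cells of 8000 to under 12000 UMIs it was 16.4%, 10.9% and 98.1% in the same order. The cells without Cxcl3 had a median of 5857 and 5218 UMIs, against 7424 and 6265 for cells with it and 7707 for PBS cells. How many of the zeros are molecules missed at low depth was not tested. After each cell was thinned to 3000 UMIs the shares were 31.6% and 24.3%. The criteria on Fstl1 and Tnf also bear on it: they set aside 3046 and 3484 cells of the LPS libraries and 567 of the PBS library, and without them the shares were 15.0% and 10.0%.

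**Figure D1:**
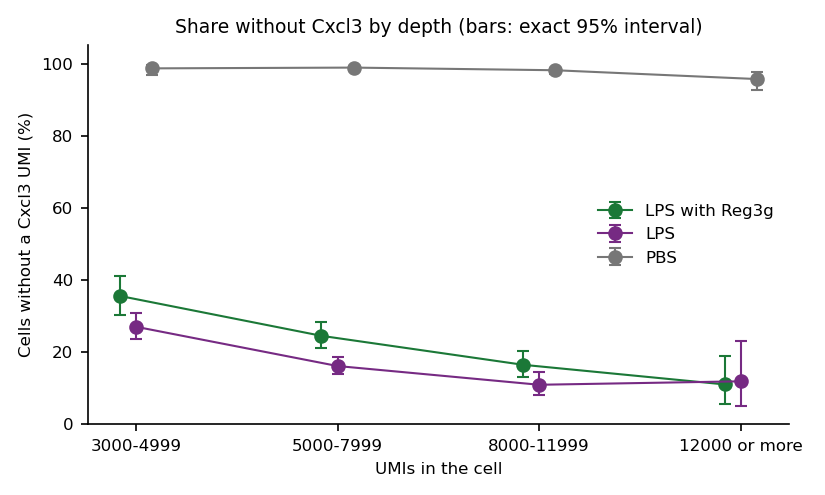
Percent of alveolar macrophages without a Cxcl3 UMI (vertical axis) by UMIs per cell (horizontal axis) in the 3 libraries, with exact 95% intervals. In both LPS libraries the share is highest in the shallowest cells (35.5% and 27.0%), while PBS cells stay above 95%.

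Cells with a single Cxcl3 UMI, just outside the rule, held 293 CPM of Fabp1 after LPS with Reg3g (144 cells) and 284 CPM after LPS alone (163 cells), against 422 and 286 CPM in cells with 0. Siglecf was at 27.9 and 15.4 CPM in cells with 1, against 47.8 and 28.6 CPM in cells with 0, and Lcn2 at 889 and 881 CPM, against 586 and 518 CPM. The step thus differed between genes, and for Fabp1 between libraries. Cells with 3 of the 9 rule genes held 2.13 and 2.55 CPM of Fabp1, against 60.2 and 14.8 CPM in cells without Cxcl3 that had 4. The cells with just 4 rule genes were thus low in Fabp1 as a set. Without Cxcl3, cells with 5 summed UMIs of Tnf, Cxcl1 and Egr2, just outside the rule, held 1721 and 960 CPM of the 4 state genes. They were 33 and 16 cells, and cells with 4 held 1463 and 963 CPM. Lcn2 was at 97.7 and 764 CPM with 5 and 255 and 353 CPM with 4. After LPS with Reg3g this edge thus set aside cells with more of the 4 genes. Cells with 2 summed UMIs of the Fstl1 group held 500 and 815 CPM (3 and 14 cells), against 637 and 685 CPM with 1.

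Cells without Cxcl3 kept part of the PBS state, between the level of PBS cells and that of LPS cells with Cxcl3. Fabp1, a fatty acid binding protein of resident alveolar macrophages, had 422 CPM (396 to 450) after LPS with Reg3g and 286 CPM (264 to 310) after LPS alone, against 148 and 114 CPM in cells with Cxcl3 and 1218 CPM in PBS cells. Siglecf, the sialic acid receptor used to gate these cells, had 47.8 and 28.6 CPM, against 13.3 and 9.24 CPM in cells with Cxcl3 and 120.0 CPM in PBS cells. Krt19, a keratin, had 118 and 109 CPM, against 37.8 and 38.3 CPM in cells with Cxcl3 and 392 CPM in PBS cells. All 3 were at least 2-fold above the cells with Cxcl3 in each library and at least 2-fold below PBS cells (log2 ratios to PBS between -1.33 and -2.09). Ear1, an eosinophil-associated ribonuclease, kept the largest part. It had 498 and 441 CPM, against 231 and 195 CPM in cells with Cxcl3 and 1082 CPM in PBS cells, which is 46.0% and 40.7% of the PBS level.

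**Figure D2:**
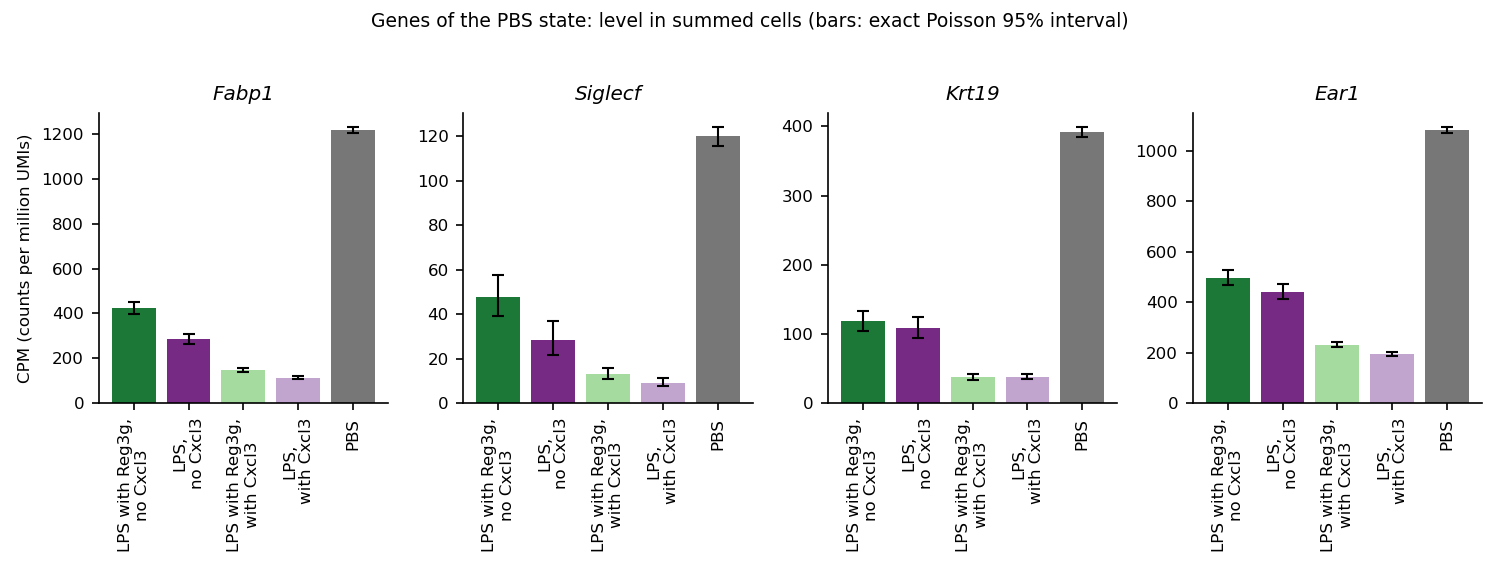
Level of Fabp1, Siglecf, Krt19 and Ear1 in CPM (vertical axes, from 0) in cells without Cxcl3 after LPS with Reg3g and after LPS, cells with Cxcl3 from the same libraries, and PBS cells; error bars are exact Poisson 95% intervals. Each gene stands between the cells with Cxcl3 and the PBS cells, as with Fabp1 at 422 and 286, against 148 and 114 and 1218 CPM.

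Summed over the 4 genes, cells without Cxcl3 held 38.6% (37.1 to 40.2) of the PBS level after LPS with Reg3g and 30.7% (29.3 to 32.2) after LPS alone. Cells with Cxcl3 held 15.3% and 12.7%. The level stepped down with the amount of Cxcl3. After LPS with Reg3g it was 21.7% in cells with 1 to 4 Cxcl3 UMIs, 14.7% with 5 to 19 and 11.5% with 20 or more, and after LPS alone it was 18.7%, 11.6% and 8.13%. The order was the same among cells of 3000 to under 6000 UMIs (52.2%, 24.1%, 12.9% and 8.34% after LPS with Reg3g, from 0 to 20 or more; 39.8%, 22.2%, 9.85% and 8.57% after LPS alone). Within the limits on genes of other cell types the cells without Cxcl3 held 42.7% (41.0 to 44.5) and 36.5% (34.7 to 38.4) of the level of PBS cells within the same limits. Cells over the limits held a sum of 306 and 368 CPM, against 1258 and 1076 CPM within them.

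**Figure D3:**
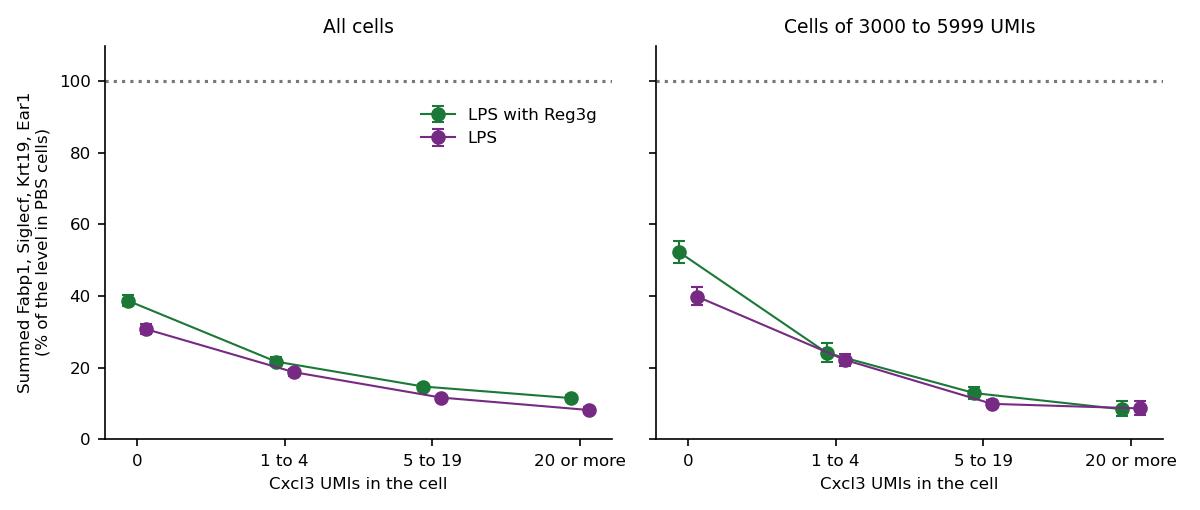
Summed level of Fabp1, Siglecf, Krt19 and Ear1 as percent of PBS cells (vertical axis) by the number of Cxcl3 UMIs in the cell (horizontal axis), for LPS with Reg3g and LPS, over all cells (left) and over cells of 3000 to under 6000 UMIs (right), with 95% intervals; the dotted line is the PBS level. Cells with 0 Cxcl3 UMIs hold 38.6% and 30.7% on the left and 52.2% and 39.8% on the right.

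To see how the level was spread over cells, the 4 genes were counted in each cell after thinning to 3000 UMIs. At least 2 of them were seen in 52.5% (47.0 to 57.8) of cells without Cxcl3 after LPS with Reg3g and in 42.9% (37.8 to 48.2) after LPS alone, against 19.9% and 15.98% of cells with Cxcl3 and 88.6% of PBS cells. None was seen in 20.3% and 28.3%, against 44.0% and 51.4% with Cxcl3 and 1.55% with PBS. The cells without Cxcl3 thus spread over the whole range, with 11 and 8 cells showing all 4 genes. The other sets did so too: all 4 were seen in 3 and 1 cells with Cxcl3 and in 441 PBS cells, and none in 50 PBS cells. How much of the spread comes from sampling at 3000 UMIs was not tested. At 1000 UMIs per cell Ear1 was seen in 35.4% and 34.6% of cells without Cxcl3 and in 0% of the 101 and 177 lymphoid cells of the same libraries (at most 3.59% and 2.06% by the interval), which should lack it. Fabp1 was seen in 26.4% and 19.9% of cells without Cxcl3 and in 0.99% and 0% of lymphoid cells, and Krt19 in 10.7% and 9.42%, against 0.99% and 0%. Siglecf was seen in 4.06% (2.24 to 6.71) and 3.88% (2.14 to 6.42), against 0% (up to 3.59% and 2.06%), and its intervals overlap after LPS with Reg3g. Lymphoid cells had a median of 2305 and 2155 UMIs before thinning.

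**Figure D4:**
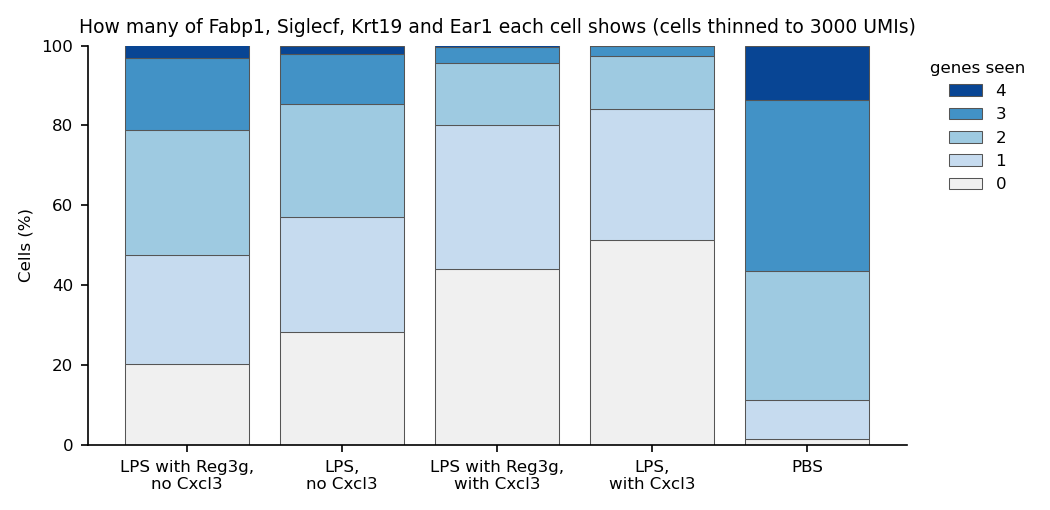
Percent of cells (vertical axis) in which 0 to 4 of the genes Fabp1, Siglecf, Krt19 and Ear1 were seen after thinning to 3000 UMIs, for each set of cells. The part with 2 or more is 52.5% and 42.9% in cells without Cxcl3, 19.9% and 15.98% in cells with it and 88.6% in PBS cells.

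The LPS response was read in the same thinned cells as the share of UMIs in 93 genes of 4 lists (chemokines, cytokines, NF-kB and LPS-inducible genes, interferon response). Its median was 1.53% after LPS with Reg3g and 1.63% after LPS alone, against 2.27% and 2.47% in cells with Cxcl3 and 0.833% in PBS cells. A share of at most 1.8%, the upper end of the central 95% of PBS cells, was found in 63.8% and 62.0% of cells without Cxcl3, against 28.2% and 20.6% of cells with it. Both this and at least 2 of the 4 state genes were found in 35.9% (30.9 to 41.3) and 33.2% (28.4 to 38.4) of cells without Cxcl3, against 6.34% and 6.18% with Cxcl3 and 86.5% of PBS cells. These cells were 124 and 120 in number.

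Set against PBS cells over all genes that reached 50 CPM in 1 of the 2 sets, the cells without Cxcl3 differed at fewer genes than those with it. Of 3363 genes, 6.57% were 2-fold or more apart after LPS with Reg3g, 110 higher and 111 lower, and of 3380 genes 8.93% after LPS alone, 146 higher and 156 lower. For cells with Cxcl3 these shares were 17.7% and 19.3%. Against the cells with Cxcl3 of their own library, 84 genes were higher and 41 lower after LPS with Reg3g (3.93% of 3180 genes), and 83 higher and 43 lower after LPS alone (4.05% of 3109). The same PBS cells enter both LPS comparisons. The cells were chosen by measured genes, Cxcl3 among them, so all these counts describe the sets and test nothing.

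Resident identity genes were lower than in PBS cells, and less so than in cells with Cxcl3. Of 37 measured genes of the identity list (at least 10 CPM in the higher set, rule genes left out), 11 were at least 2-fold lower and 2 higher after LPS with Reg3g (median log2 ratio -0.53), and 15 lower and 2 higher after LPS alone (-0.70). Over all genes at this floor 3.41% were lower and 3.37% higher after LPS with Reg3g, and 5.07% lower and 4.63% higher after LPS alone. In cells with Cxcl3 20 and 22 were lower, with medians of -1.28 and -1.37, where 11.8% and 13.2% of all genes were lower. Among the lowest were Spp1, which encodes osteopontin (102 and 70.8 CPM, against 523 CPM in PBS cells), the tubulin-binding Tppp3 (46.9 and 33.9 CPM, against 206 CPM), the adhesion molecule Epcam (25.9 and 17.9 CPM, against 82.6 CPM) and the beta-glucan receptor Clec7a (283 and 225 CPM, against 968 CPM). Flt1, a receptor for vascular growth factors, and Gdf15, a secreted stress factor, are not in the identity list. Their log2 ratios were -1.70 and -1.22 after LPS with Reg3g and -2.14 and -2.09 after LPS alone. Ear6, a relative of Ear1, ran the other way, at 62.0 and 68.4 CPM, against 8.58 CPM in PBS cells and 77.6 and 78.4 CPM in cells with Cxcl3.

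Some identity genes were far closer to the PBS level without Cxcl3 than with it. Serpinb1a, an inhibitor of neutrophil proteases, had 153 and 140 CPM, against 38.0 and 31.3 CPM in cells with Cxcl3 and 218 CPM in PBS cells. Il18, a cytokine stored as a precursor, had 535 and 464 CPM, against 285 and 259 CPM with Cxcl3 and 651 CPM in PBS cells. Cpne5, a calcium-dependent membrane-binding protein that is not in the identity list, had 76.3 and 64.5 CPM, against 12.4 and 8.58 CPM with Cxcl3 and 176 CPM in PBS cells. Against cells with Cxcl3, 10 of 37 identity genes stood 2-fold or more above and 0 below after LPS with Reg3g, and 12 higher and 0 lower after LPS alone (medians 0.68 and 0.53, the 4 state genes among the higher ones), where 4.62% and 4.52% of all genes were higher.

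The transcription factors of macrophage identity were lower too. Of 17 measured, 3 were at least 2-fold lower and 1 higher after LPS with Reg3g, and 5 lower and 3 higher after LPS alone, with medians of -0.53 and -0.59, against -1.20 and -1.11 in cells with Cxcl3. Without Cxcl3, 3.41% and 5.07% of all genes from 10 CPM were lower than in PBS cells and 3.37% and 4.63% higher. Cebpa had 77.7 and 68.9 CPM, against 62.9 and 54.0 CPM with Cxcl3 and 255 CPM in PBS cells, so it was nearly as low as in cells with Cxcl3 (log2 ratios of 0.30 and 0.35 to them). Klf4, a zinc finger factor, had 273 and 277 CPM, against 169 and 177 CPM with Cxcl3 and 746 CPM in PBS cells. Of 24 lipid and surfactant genes, 4 were lower and 1 higher than in PBS cells in each library (medians -0.25 and -0.22). The cholesterol exporter Abcg1 had 747 and 635 CPM, against 411 and 375 CPM with Cxcl3 and 1658 CPM in PBS cells. Pltp, which moves phospholipids between particles, had 110 and 136 CPM, against 36.0 and 39.1 CPM with Cxcl3 and 90.2 CPM in PBS cells.

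A response to LPS was present without Cxcl3. In the list of NF-kB targets, 23 of 33 measured members stood 2-fold or more above PBS cells and 1 below after LPS with Reg3g (median 1.61), as did 27 of 35 after LPS alone, with 0 below (2.46). Genes of every kind from 10 CPM were higher in 3.37% and 4.63% of cases and lower in 3.41% and 5.07%. A gene is read as made by these cells where its share lies above that of lymphoid cells, which take up free RNA. Lymphoid cells were chosen by 3 or more UMIs of lymphoid genes and fewer than 4 rule genes, with no limit on myeloid genes. They may make some induced genes themselves or hold RNA of other cells, which was not tested. A share not above theirs therefore does not show that the cells without Cxcl3 lack the gene. Ccl9, a chemokine of myeloid cells, had 588 and 564 CPM, against 29.7 CPM in PBS cells, and at 1000 UMIs it was seen in 31.6% (26.7 to 36.8) and 35.7% (30.8 to 40.9) of cells without Cxcl3 and in 8.91% (4.16 to 16.2) and 9.60% (5.70 to 14.9) of lymphoid cells. Unthinned it was seen in 68.7% and 68.4% of the cells. Sod2, the mitochondrial superoxide dismutase, had 756 and 728 CPM, against 132 CPM in PBS cells, and Il1a, an alarm cytokine, 105.3 and 121.7 CPM, against 20.1 CPM. Hmox1, which breaks down haem, had 334 and 335 CPM, against 158 CPM in PBS cells. The shares of Ccl9 and Hmox1 lay above the lymphoid intervals in both libraries, those of Sod2 and Il1a after LPS alone, with intervals that overlap after LPS with Reg3g. Each of the 4 was lower than in the cells with Cxcl3, which held 1547 and 1466 CPM of Ccl9 and 1581 and 1597 CPM of Sod2.

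Other induced genes were not seen in clearly more cells than among lymphoid cells. Lcn2, which binds bacterial iron carriers, had 586 and 518 CPM, against 0.574 CPM in PBS cells (log2 ratios 9.99 and 9.82). It was seen at 1000 UMIs in 20.0% (15.9 to 24.6) and 24.9% (20.6 to 29.7) of cells without Cxcl3 and in 12.9% (7.04 to 21.004) and 18.6% (13.2 to 25.2) of lymphoid cells, and the intervals overlap. Saa3, an acute-phase protein, had 1329 and 1584 CPM, against 794 and 1101 CPM with Cxcl3 and 0.498 CPM in PBS cells. Its share was 22.03% and 32.7%, below the 33.7% and 49.7% of lymphoid cells, so the share is not read as expression by most of the cells. Its level was uneven within the sets: 3861 and 3674 CPM in cells with none of the 4 state genes, against 359 and 439 CPM in cells with at least 2. Within the limits on genes of other cell types Saa3 stood at 534 and 366 CPM without Cxcl3 and 461 and 496 CPM with it, so the order of the LPS library turned. The chemokine Ccl5, the itaconate-making enzyme Acod1 and the proteoglycan Sdc4 were also not above the lymphoid share.

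A small group of induced genes was far lower without Cxcl3 than with it. The retinoic acid degrading enzyme Cyp26b1 had 19.6 and 20.4 CPM, against 109 and 137 CPM with Cxcl3 (log2 ratios -2.47 and -2.75). The serine protease inhibitor Serpina3f had 12.9 and 13.1 CPM, against 57.7 and 67.0 CPM, with 0 counts in PBS cells. Ptges, which makes prostaglandin E2, had 46.4 and 26.7 CPM, against 107 and 116 CPM, and Ch25h, which hydroxylates cholesterol, 38.4 and 24.7 CPM, against 134 and 95.6 CPM. The arginine transporter Slc7a2 had 458 and 401 CPM, against 1204 and 1191 CPM with Cxcl3 and 342 CPM in PBS cells. Of the NF-kB targets 10 stood 2-fold or more below cells with Cxcl3 and 0 above after LPS with Reg3g, and 11 lower and 4 higher after LPS alone, against 1.13% and 1.2% of all genes lower. The 4 higher ones, Cd40, Ptgs2, Cd83 and Marcksl1, are also genes of activated dendritic cells. The ferritin chain Fth1, named after its values were seen, had 42561 and 43015 CPM, against 60685 and 64815 CPM in cells with 1 to 4 Cxcl3 UMIs and 17964 CPM in PBS cells.

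**Figure D5:**
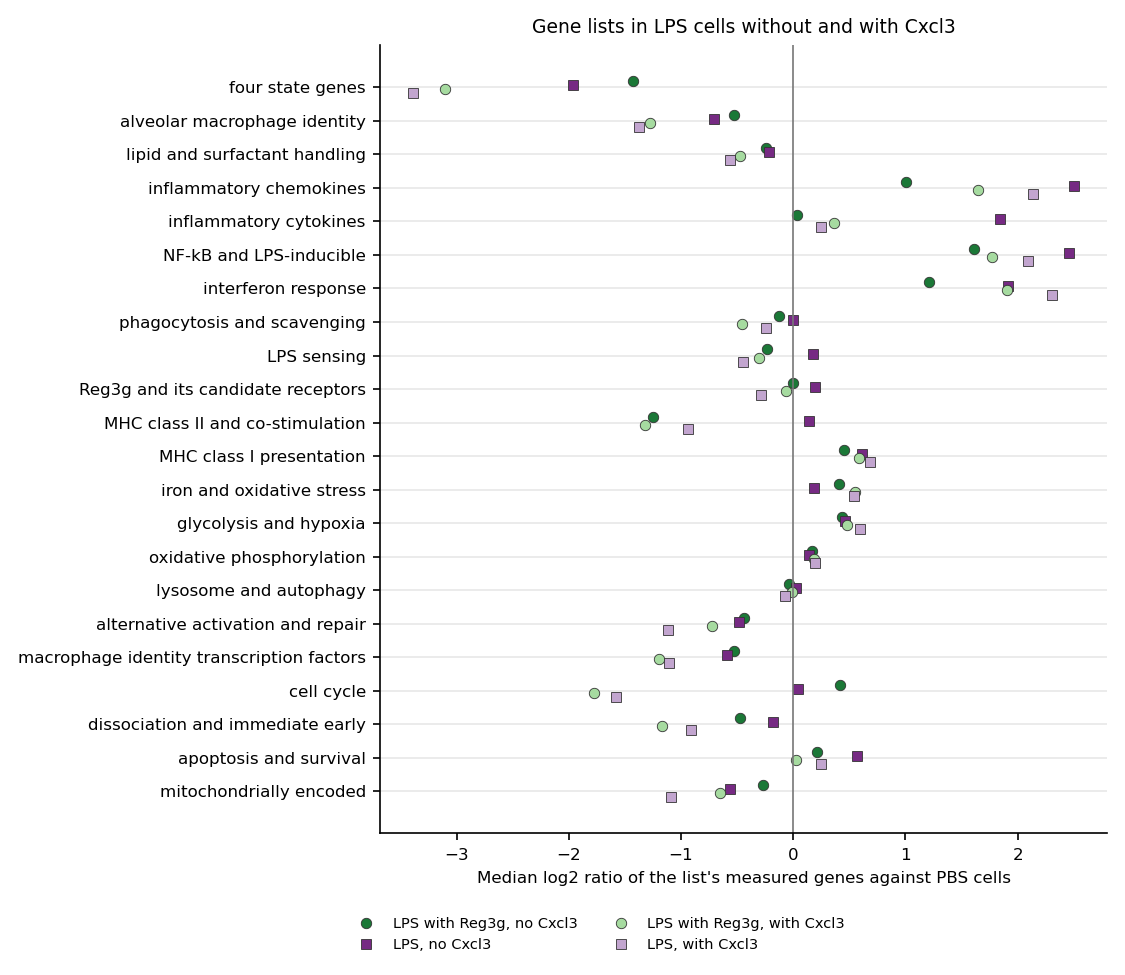
Median log2 ratio against PBS cells (horizontal axis) of the measured genes of each list (vertical axis) in cells without Cxcl3 (dark) and with Cxcl3 (light) after LPS with Reg3g (circles) and LPS (squares). The identity list stands at -0.53 and -0.70 without Cxcl3 and -1.28 and -1.37 with it, and the cell cycle list at 0.41 and 0.04 against -1.77 and -1.58.

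Chemokine and interferon lists were higher than in PBS cells in both libraries, and the cytokine list after LPS alone. A part of this moved with the other cells. Of 13 chemokines 7 stood 2-fold or more above PBS cells and 1 below after LPS with Reg3g (median 1.00), and 10 of 14 higher and 0 lower after LPS alone (2.502). The shares over all genes at the floor of 10 CPM were 3.37% and 4.63% higher and 3.41% and 5.07% lower. Of 17 interferon response genes 11 were higher and 0 lower after LPS with Reg3g (1.21), and 16 of 20 higher and 0 lower after LPS alone (1.91). Irf7, the interferon-amplifying factor, had 54.0 and 77.1 CPM, against 5.36 CPM in PBS cells, yet it was seen in fewer cells without Cxcl3 (4.93% and 5.82% at 1000 UMIs) than lymphoid cells (16.8% and 12.99%). Cxcl10, a ligand of Cxcr3, had 193 and 179 CPM, against 116 and 130 CPM with Cxcl3 and 6.74 CPM in PBS cells, and within the limits 92.7 and 103 CPM, against 112 and 99.4 CPM. A single cell held 48.5% of the Cxcl10 UMIs after LPS with Reg3g. Il1b had 381 and 790 CPM, against 801 and 972 CPM with Cxcl3 and 73.3 CPM in PBS cells, and its share (20.3% and 26.0%) was at or below that of lymphoid cells (23.8% and 36.2%). Of 5 measured cytokines after LPS with Reg3g 2 were higher (Il1a and Il1b) and 1 lower (Osm), with a median of 0.036. Of 7 after LPS alone 4 were higher and 0 lower, with a median of 1.84. That median turned to -0.15 within the limits on other cells and to -0.087 for genes from 50 CPM.

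Cell cycle genes stood near the PBS level without Cxcl3 and below it with Cxcl3. Against cells with Cxcl3, 19 of 23 stood 2-fold or more above and 0 below after LPS with Reg3g (median 2.05), and 15 of 21 higher and 0 lower after LPS alone (1.24). Here 4.62% and 4.52% of all genes from 10 CPM were higher and 1.13% and 1.2% lower. Against PBS cells 1 of 23 was higher and 0 lower, and 0 of 22 higher and 1 lower. These counts are near the shares of all genes (3.37% and 4.63% higher, 3.41% and 5.07% lower). Top2a, which untangles replicated DNA, had 80.3 and 62.1 CPM, against 13.5 and 16.8 CPM with Cxcl3 and 58.6 CPM in PBS cells. Birc5, the mitotic protein survivin, had 79.45 and 50.4 CPM, against 14.2 and 14.3 CPM and 48.8 CPM. The histone gene H2ac24 had 189 and 166 CPM, against 38.1 and 34.2 CPM with Cxcl3 and 91.8 CPM in PBS cells. After thinning to 3000 UMIs, cells with 3 or more summed UMIs of 6 cycling genes were 8.12% (5.46 to 11.5) and 6.65% (4.31 to 9.73) of cells without Cxcl3, against 1.52% (0.887 to 2.42) and 2.06% (1.42 to 2.88) with it and 4.69% (3.99 to 5.48) with PBS. A list this sparse takes 68.3% and 65.9% of its UMIs from the 10% of cells that hold most, and without cycling cells the median after LPS alone was 0.56.

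MHC class II genes differed between the 2 LPS libraries: Cd74, the class II chaperone, had 322 CPM without Cxcl3 after LPS with Reg3g and 854 CPM after LPS alone, against 792 CPM in PBS cells, and 188 and 480 CPM within the limits, against 268 CPM. Of 8 measured class II and co-stimulation genes 5 stood 2-fold or more below PBS cells and 0 above after LPS with Reg3g, while after LPS alone 1 of 10 was lower and 1 higher. Among all genes from 10 CPM, 3.41% and 5.07% were lower and 3.37% and 4.63% higher. C1qa had 107 and 165 CPM, against 35.8 and 69.2 CPM with Cxcl3 and 53.5 CPM in PBS cells, and interstitial macrophage markers summed to 764 and 1472 CPM, against 500 and 723 CPM with Cxcl3 and 778 CPM in PBS cells, with 79.1% and 69.7% of that sum in the 10% of cells without Cxcl3 that hold most. In the cells within the limits, which were set on C1q, no reading of these genes is possible. Fcgr1, the high-affinity antibody receptor, was not among the limiting genes and had 35.3 and 35.4 CPM, against 11.4 and 14.3 CPM with Cxcl3 and 39.8 CPM in PBS cells. The integrin Itgam, a sign of recruited cells that alveolar macrophages also gain in inflammation, had 86.6 and 97.48 CPM, against 10.8 CPM in PBS cells, at a share no larger than that of lymphoid cells (6.67% and 5.82% against 11.9% and 9.60%). Adgre1, which encodes the F4/80 antigen of the sort, had 148 and 155 CPM, against 198 and 201 CPM with Cxcl3 and 111 CPM in PBS cells.

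Of 24 oxidative phosphorylation genes 0 were 2-fold apart from PBS cells in either library (medians 0.17 and 0.14), and of 24 lysosome and autophagy genes 1, Cd63, was higher (-0.04 and 0.02). Of 18 and 19 glycolysis genes 4 and 3 were higher and 0 lower (0.43 and 0.46), among them the glycolytic enzyme Pgam1 at 318 and 315 CPM, against 137 CPM. Of 22 iron and oxidative stress genes 7 and 8 were higher and 0 lower (medians 0.41 and 0.18), among them Lcn2, Sod2, Hmox1 and Fth1. Over all genes at this floor 3.37% and 4.63% were higher and 3.41% and 5.07% lower. Of 16 MHC class I genes 1 and 3 were higher and 0 lower. Mitochondrially encoded genes had medians of -0.27 and -0.56, against -0.65 and -1.09 in cells with Cxcl3. The immediate early genes, which tissue digestion also raises, had medians of -0.48 and -0.18, with Fosb at 259 and 258 CPM, against 80.0 and 106 CPM with Cxcl3 and 684 CPM in PBS cells. Of 21 and 22 phagocytosis and scavenging genes 6 and 7 stood 2-fold or more above PBS cells and 1 and 2 below, 3 of the higher ones being C1q genes. Of 13 genes of alternative activation and repair 2 stood above (Arg1 and Gpnmb) and 4 below (Spp1, Retnla, Klf4 and Igf1) in each library, with medians of -0.44 and -0.48. Of 12 and 13 LPS sensing genes 1 and 2 stood above and 0 below, and of 16 and 18 apoptosis and survival genes 0 and 2 above and 0 below. Extl3, a candidate Reg3g receptor, had 13.4 and 17.0 CPM, against 14.8 CPM in PBS cells, and Reg3g itself had 0 counts without Cxcl3 after LPS with Reg3g.

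Between the libraries, fewer genes of the cells without Cxcl3 were 2-fold apart than between either set and PBS cells. Of 3178 genes 1 was at least 2-fold higher and 25 lower after LPS with Reg3g than after LPS alone (0.818%). The 4 state genes summed to 1086 CPM after LPS with Reg3g and 864 CPM after LPS alone, 126% (118 to 134) of the LPS level. Fabp1 made up most of this difference, at 422 and 286 CPM, while the Krt19 level was 118 and 109 CPM and that of Ear1 498 and 441 CPM. Gdf15 had 117 and 64.0 CPM (log2 ratio 0.87, 0.56 to 1.18), against 273 CPM in PBS cells. The 1 higher gene was the B cell attractant Cxcl13, at 338 and 35.9 CPM, and a single cell held 97% of its UMIs after LPS with Reg3g. Within the limits on other cells the difference in the state genes was smaller (log2 ratio 0.23, against 0.33 over all cells).

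Among the 25 lower genes were those of migratory dendritic cells. Ccl22 had 2.68 CPM after LPS with Reg3g and 60.1 CPM after LPS alone, Fscn1 6.69 and 103 CPM, and the lymph node homing receptor Ccr7 4.46 and 55.8 CPM. Dendritic cell markers summed to 127 and 326 CPM, against 145 CPM in PBS cells, and the 10% of cells that hold most had 42.3% and 66.7% of it, with Siglech at 0 in both sets and Cd209a at 0 after LPS with Reg3g. Within the limits on other cells 10 genes were 2-fold lower and 3 higher. Ccl17, a ligand of Ccr4, was not among the limiting genes: it had 56.2 and 433 CPM over all cells, and 61.0 and 275 CPM within the limits, where cells with Cxcl3 held 467 and 722 CPM. Its share after LPS alone (10.8%) was below that of lymphoid cells (14.1%). Of 10 class II and co-stimulation genes 6 were lower and 0 higher after LPS with Reg3g (median -1.16), and of 35 NF-kB genes 7 lower and 0 higher (-0.17), where 1.57% of all genes at this floor were lower and 0.827% higher. The part of dendritic cells in the class II genes was not tested beyond these limits.

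Cells without Cxcl3 that showed at least 2 of the 4 state genes (181 and 155 cells) form a range and not a type, and they were nearer to PBS cells than cells with none of the 4 in some readings and farther in others. Their induced share was 1.61% and 1.53%, against 2.09% and 2.71% in cells with none and 0.928% in PBS cells with at least 2. They still held 384 and 278 CPM of Lcn2, against 0.562 CPM, and 38319 and 40594 CPM of Fth1, against 17893 CPM. The Lcn2 share of the cells without Cxcl3 was not clearly above that of lymphoid cells, so its level is not read as made by them. Cells with none held 44455 and 36237 CPM of Fth1, so the order differed between the libraries. Fabp4, a fatty acid binding protein also named after its values were seen, was at 1022 and 871 CPM in cells with at least 2 and 848 and 480 CPM in cells with none, against 547 CPM in PBS cells with at least 2. Chil3, a chitinase-like protein named after its values were seen, stood at 7379 and 8016 CPM, against 6759 CPM, and Ear2 at 2108 and 2476 CPM, against 3400 CPM. In cells without Cxcl3 that showed none of the 4 (70 and 102 cells) Chil3 was at 3229 and 2306 CPM and Ear2 at 507 and 485 CPM. Those cells had 377 and 519 CPM of the monocyte gene Ly6c2, against 17.4 and 73.0 CPM in cells with at least 2, and 32.9% and 45.1% of them had just 4 rule genes, against 1.10% and 1.94%. Interstitial macrophage markers summed to 1928 and 3382 CPM in cells with none of the 4, against 284 and 530 CPM in cells with at least 2, while the monocyte list summed to 6311 and 6232 CPM, against 7929 and 8897 CPM. The cells without Cxcl3 that were lowest in the 4 genes thus carried the most C1q and Ly6c2 RNA, and its part in their low level was not tested.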

How the data were processed

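The deposited files hold UMI counts per gene and barcode, not normalized, for 3 libraries of 10x Genomics 3′ v4 chemistry, per the labels. The submitters' processing notes name bcl2fastq 5.0.1, Cell Ranger 9.0.1, Seurat 4.4.0 and the build mm10, and no source used here names the annotation. The cells, the 31 gene lists and the 9 rule genes were chosen with earlier results of these data known.

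UMIs were summed over the cells of a set and scaled to CPM, with the 17 rule genes left out of lists and counts of genes. Levels have exact Poisson intervals, log2 ratios exact conditional binomial ones and shares Clopper-Pearson ones (95%). A difference of 2-fold among genes of at least 50 CPM in the higher set (10 CPM for lists) was counted. With 1 library per group no test was made. Genes named are the 12 highest and 12 lowest of each comparison from 50 CPM, up to 4 per list, the 4 state genes and a fixed set of markers, and others are said to be chosen after their values were seen. Doublets were scored with Scrublet in scanpy 1.11.5 and kept (24 and 37 of the cells without Cxcl3 were marked). Thinning and ratios were tested on simulated data. Python 3.11.15, numpy 2.4.6, scipy 1.17.1 and pandas 2.3.3 were used.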

Additional observations from a re-analysis of the deposited data

Results flagged for a closer look

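Basp1, a membrane-bound signalling protein, and S100a8, a calcium-binding protein of neutrophils and monocytes, differed in direction between the libraries. The log2 ratio of cells without Cxcl3 to cells with it was -0.56 for Basp1 after LPS with Reg3g (25.9 against 38.1 CPM) and 0.76 after LPS alone (66.0 against 38.9 CPM). For S100a8 it was -0.92 (118 against 223 CPM) and 0.53 (195 against 135 CPM). Within the limits on genes of other cell types Basp1 was at 19.1 against 30.2 CPM after LPS with Reg3g and 18.0 against 26.8 CPM after LPS alone, and S100a8 at 77.4 against 85.2 CPM and 79.6 against 78.5 CPM. The difference between the libraries was not tested, since each is 1 library.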

How the results depend on the processing

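No paired analysis was possible because each group is 1 library and no test was made. Of 227 alternative values of the shares, summed state genes and counts of genes, 160 stayed close to the reported ones and 67 moved. None of the summed ratios changed sign. Genes picked for naming also depended on the setting. Between the libraries as few as 18 of 36 kept a 2-fold difference in the same direction. Against cells with Cxcl3 as few as 70 of 88 (LPS with Reg3g) and 59 of 87 (LPS alone) did so. Against PBS cells after LPS with Reg3g as few as 92 of 118 did so. In the same order up to 4, 6, 4 and 6 changed direction, and up to 1 after LPS alone against PBS cells. Changes are given for LPS with Reg3g first, then LPS alone, and the cause of each was not tested beyond what the setting itself removes.

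The share without Cxcl3 was 31.6% and 24.3% after thinning to 3000 UMIs, 20.1% and 14.5% from 5000 UMIs, 33.4% and 26.7% with up to 1 Cxcl3 UMI, 15.0% and 10.0% without the Fstl1 and Tnf criteria, and 15.8% after LPS alone with 6 of 9 rule genes.

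The log2 ratio of the 4 summed genes to PBS cells was -1.52 and -1.94 from 5000 UMIs, -0.94 and -1.33 at 3000 to under 6000 UMIs, -1.48 and -1.79 with up to 1 Cxcl3 UMI, -1.22 and -1.46 with 6 rule genes, -1.24 and -1.56 with cells weighted equally, -1.23 and -1.45 within the limits on other cells (chosen after seeing the data), and -1.20 after LPS with Reg3g without the Fstl1 and Tnf criteria. To cells with Cxcl3 it was 1.19 and 1.06 from 5000 UMIs, 1.72 and 1.47 at 3000 to under 6000, 1.45 and 1.42 thinned, 1.46 and 1.49 with 6 rule genes, 1.68 and 1.66 without the Fstl1 and Tnf criteria, 1.44 and 1.41 weighted equally, 1.43 and 1.49 within the limits, and 1.38 after LPS alone without cycling cells. Between LPS with Reg3g and LPS alone it was 0.43 from 5000 UMIs, 0.24 with 6 rule genes, 0.50 without the Fstl1 and Tnf criteria and 0.23 within the limits.

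With a floor of 10 CPM, genes higher and lower numbered 268 and 271 (LPS with Reg3g) and 370 and 405 (LPS alone) against PBS cells, 356 and 87, and 346 and 92, against cells with Cxcl3, and 65 and 123 between the libraries. At 3000 to under 6000 UMIs 257 were higher and 74 lower than in cells with Cxcl3 after LPS with Reg3g, 132 higher after LPS alone, and 69 lower than in PBS cells after LPS with Reg3g. Without the Fstl1 and Tnf criteria 151 were higher than with Cxcl3 and 68 lower than in PBS cells after LPS with Reg3g. Between the libraries the 1 higher gene became 4 thinned, 3 from 5000 UMIs, 2 with 6 rule genes, 2 with up to 1 Cxcl3 UMI, 11 at 3000 to under 6000 UMIs, 0 without the criteria (a count with no test) and 3 within the limits, and the 25 lower ones 13 thinned, 7 with 6 rule genes and 10 within the limits. The cytokine median after LPS alone against PBS cells (1.84) turned to -0.087 for genes from 50 CPM, -0.49 without possible carry-over genes and -0.15 within the limits.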
